A study of Homo sapiens with 24 samples.

Results

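SOX transcription factors were followed through A2780 cells, a human ovarian cancer line, with and without the small GTPase Rab25. The members were 8 of the 16 SOX genes with a probe set on the array, out of 11940 genes in all: SOX4, SOX9, SOX11, SOX12, SOX13, SOX15, SOX17 and SOX18. Each gene was read from the probe set with the highest mean over the 24 arrays. One line expressed Rab25 from a transfected construct (12 arrays), and its control line carried the pcDNA vector (12 arrays). Both lines were starved of serum for 8 h. Cells then received EGF at 10 ng/ml, IGF at 10 ng/ml, TGF beta at 5 ng/ml or fetal bovine serum (FBS) at 5% (2 arrays of each line per treatment, 1 in each of 2 experiments), or stayed as serum-starved controls (4 arrays per line, 2 in each experiment). On the length of exposure the labels conflict: the source names say 24 h throughout, the protocol says 24 h for experiment 2 but 8 h for experiment 1. The labels name 1 line of each kind, so a difference between the lines also holds whatever else set these lines apart.

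SOX proteins bind DNA through an HMG box, bend it, and usually act with a partner factor such as a POU, PAX or LEF/TCF protein. They fall into families: SoxC (SOX4, SOX11 and SOX12), active in neural and other progenitors and in many carcinomas; SoxE (SOX9), of cartilage, gonad and epithelial progenitors; SoxF (SOX17 and SOX18), of endoderm, vessels and the female reproductive tract; SoxD (SOX13); and SoxG (SOX15). SOX17 is known as a marker of ovarian and endometrial cancers, where it acts beside PAX8, and SOX4 is known as a gene that TGF beta induces.

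The 24 arrays had median log2 signals of 7.03 to 7.35. RAB25 had log2 signals of 8.18 to 9.08 in the 12 Rab25 arrays, against 4.90 to 5.60 in the 12 pcDNA arrays, as labelled. Of the 12 markers of ovarian carcinoma lines, 8 lay above background, among them KRT8, KRT18, KRT7, PAX8, VIM and CDH2, while EPCAM, CDH1, KRT19 and MUC16 did not. The Rab25 FBS arrays stood apart. Marker signals were summed on the linear scale and the log2 of the sum was taken, so the brightest markers weigh most. For 6 blood markers it was 8.91 and 10.1 there, against at most 8.32 on the other arrays. For 6 stromal markers it was 13.0 and 14.2 against at most 12.6. For 6 breast epithelial markers it was 9.51 and 10.8 against at most 8.99, and for 5 adipocyte markers 8.56 and 10.6 against at most 8.41. Results on FBS in Rab25 cells are therefore given with these markers beside them, and the differences between the lines in SOX17 and SOX9 are also given with FBS left out. RNA from other cells and a change within the cells cannot be told apart in such bulk samples, nor can fewer cells of a type and less RNA per cell.

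Of the 8 SOX genes, 6 lay above the background mark and 2, SOX11 and SOX18, lay near background. The mark, a log2 signal of 5.95, was the 90th percentile of the means of 19 genes of liver, muscle, pancreas, retina, testis, brain and other tissues, and 69.6% of all genes exceeded it. SOX9 had a mean log2 signal of 11.53 over the 24 arrays (SD 0.48, range 10.57 to 12.19) and SOX4 one of 10.57 (SD 0.78, range 9.47 to 12.29). SOX17 had a mean of 7.78 (SD 0.54, range 7.15 to 8.80). These 3 were also the members whose signal varied most between arrays: the SD of SOX4 exceeded that of 98.9% of genes, that of SOX17 96.4% and that of SOX9 94.5%. SOX12 (mean 7.02, range 6.54 to 7.45) and SOX13 (mean 6.77, range 6.22 to 7.12) varied less. SOX15 had a mean of 6.01 and was above the mark on 16 of 24 arrays. SOX11 (mean 5.37, highest 5.55) and SOX18 (mean 5.11, highest 5.37) were below it on all 24. The signals of different probe sets do not rank the genes by transcript number.

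**Figure D1:**
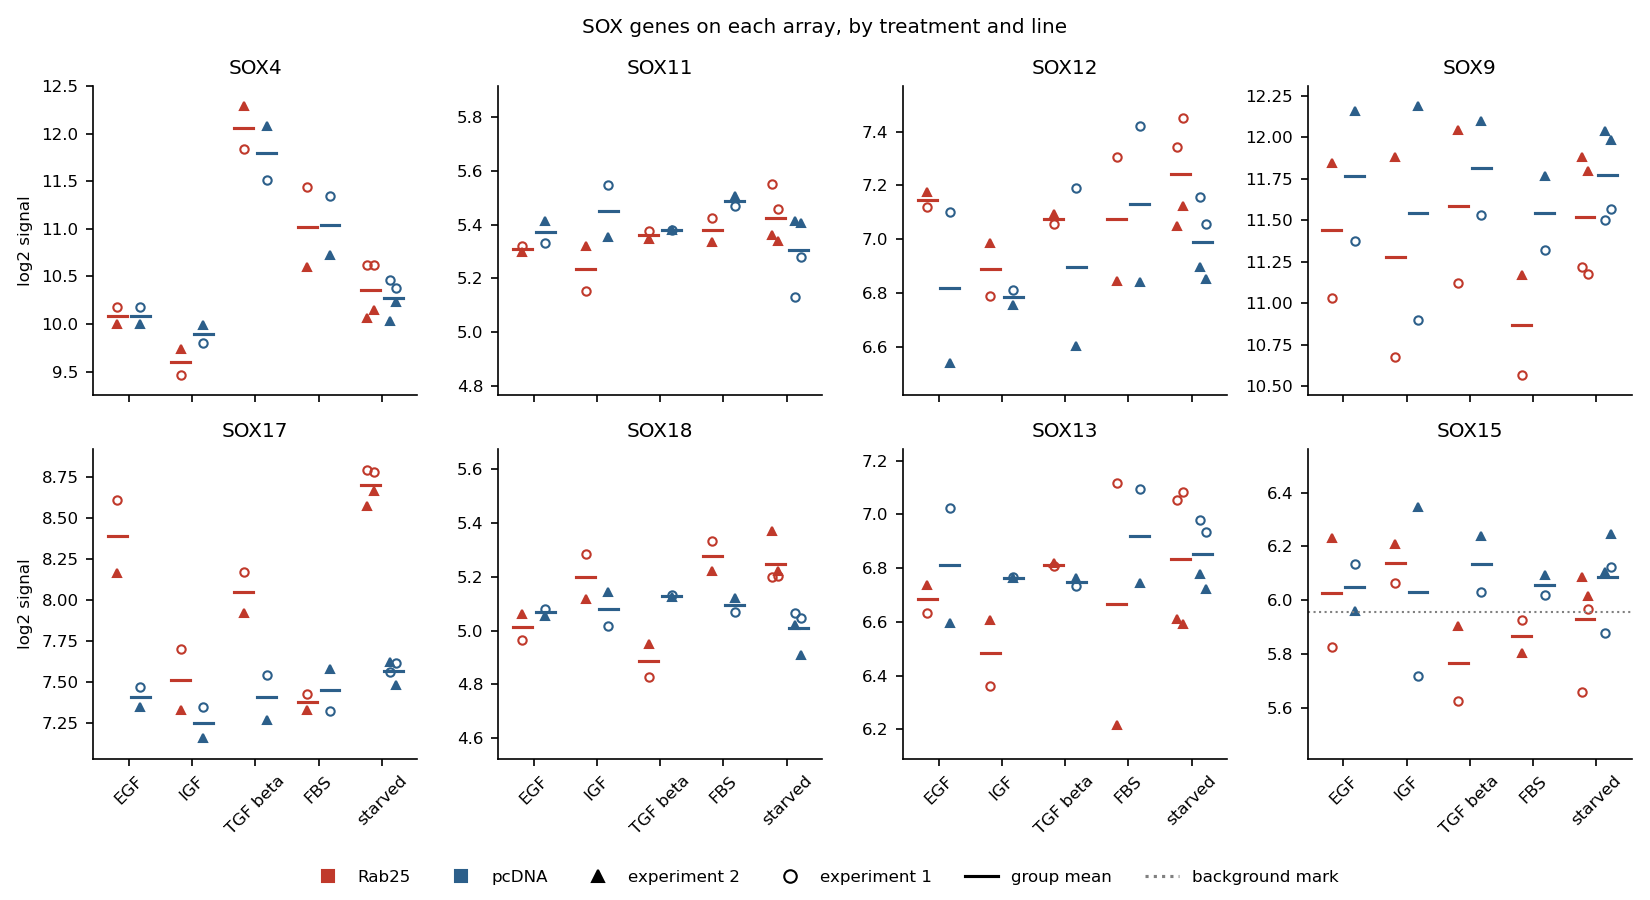
Log2 signal of each SOX gene (vertical axes, 1 panel per gene) on each of the 24 arrays, by treatment, with Rab25 cells left of pcDNA cells. Triangles are experiment 2, open circles experiment 1, bars group means and the dotted line the background mark of 5.95, which lies above the SOX11 and SOX18 panels; SOX17 is highest in starved and EGF-treated Rab25 cells, SOX4 is highest with TGF beta in both lines, and SOX9 is lower in Rab25 than in pcDNA cells in each matched pair.

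Genes were compared with limma over all 11940 genes, and a gene was called at a Benjamini-Hochberg adjusted p under 0.05. Over all conditions 2 of the 8 SOX genes differed between the lines, SOX17 higher and SOX9 lower in Rab25 cells, in a comparison that called 24.7% of all genes. The median log2 difference was -0.02 over the 8 and -0.01 over all genes. In starved cells 2 of 8 were called, SOX17 and SOX18, both higher in Rab25 cells (14.8% of all genes; medians 0.10 over the 8 and -0.01 over all genes). EGF moved 0 of 8 and 0.0% of all genes by limma, with 1 member and 811 genes under an unadjusted p of 0.05. IGF moved 1 of 8, SOX17, which fell (2.71% of all genes; medians -0.23 and 0.00). TGF beta moved 2 of 8, SOX4, which rose, and SOX17, which fell (1.6% of all genes; medians -0.06 and -0.02). FBS moved 3 of 8, SOX4, which rose, and SOX9 and SOX17, which fell (17.2% of all genes; medians -0.03 and -0.03). The 4 treatments were set against the same starved arrays, so these comparisons share their controls.

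**Figure D2:**
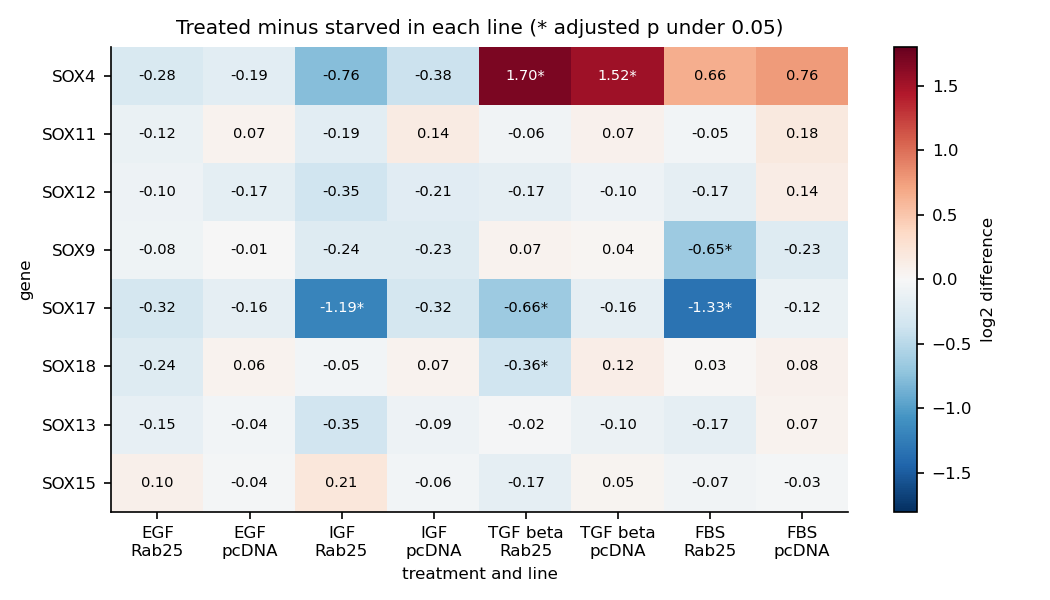
Treated minus starved difference in log2 signal for each SOX gene (rows) in each treatment and line (columns), from limma, with an asterisk where the adjusted p was under 0.05. SOX4 is above starved cells with TGF beta in both lines (1.70 in Rab25 and 1.52 in pcDNA cells), and SOX17 is below starved cells in Rab25 cells with IGF (-1.19), TGF beta (-0.66) and FBS (-1.33).

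SOX17, the SoxF factor of endoderm and of the female reproductive tract, was the SOX gene with the largest difference between the lines. In starved cells its log2 signals were 8.79, 8.80, 8.67 and 8.58 in Rab25 cells, against 7.62, 7.56, 7.48 and 7.62 in pcDNA cells. The groups did not overlap, and the lowest Rab25 array lay well above the highest pcDNA array. SOX17 was 2.20-fold higher in starved Rab25 cells (log2 difference 1.14, SE 0.09, limma adjusted p = 3.98e-07).

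The difference between the lines in SOX17 was also called with EGF and with TGF beta, and not with IGF or FBS. With EGF the signals were 8.61 and 8.17 in Rab25 cells against 7.47 and 7.35 in pcDNA cells, a log2 difference of 0.98 (SE 0.12, limma adjusted p = 3.61e-04, where 1.97% of all genes were called). With TGF beta they were 8.17 and 7.92 in Rab25 cells against 7.54 and 7.27 in pcDNA cells, a difference of 0.64 (SE 0.12, limma adjusted p = 0.011, 2.29% of genes). In both treatments the lines did not overlap, though the TGF beta call was lost without either pcDNA TGF beta array (0.70, adjusted p = 0.0758, and 0.58, adjusted p = 0.125) or the Rab25 one of experiment 1 (0.59, adjusted p = 0.0951). It was also lost without the experiment term (adjusted p = 0.118), in experiment 2 alone (adjusted p = 0.0592), without the 2 arrays of lowest median (adjusted p = 0.0788) and from the arrays of the groups compared only (adjusted p = 0.0792). With IGF they were 7.70 and 7.33 in Rab25 cells against 7.34 and 7.15 in pcDNA cells (log2 0.26, 95% interval 0.01 to 0.52, limma adjusted p = 0.369, 2.2% of genes). With FBS they were 7.43 and 7.33 in Rab25 cells against 7.32 and 7.58 in pcDNA cells (log2 -0.07, 95% interval -0.33 to 0.19, limma adjusted p = 0.831). With IGF and with FBS the signals of the lines overlapped. Over all 5 conditions SOX17 was 1.51-fold higher in Rab25 cells (log2 0.59, SE 0.05, limma adjusted p = 3.63e-07), and it was higher in 9 of 10 pairs matched on condition and experiment. With FBS left out of both lines, a setting added after the data were seen, the difference was 0.76 (SE 0.06). Within experiment 2 it was 0.49 and within experiment 1 0.69, in fits with 1 array in each treated group.

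**Figure D3:**
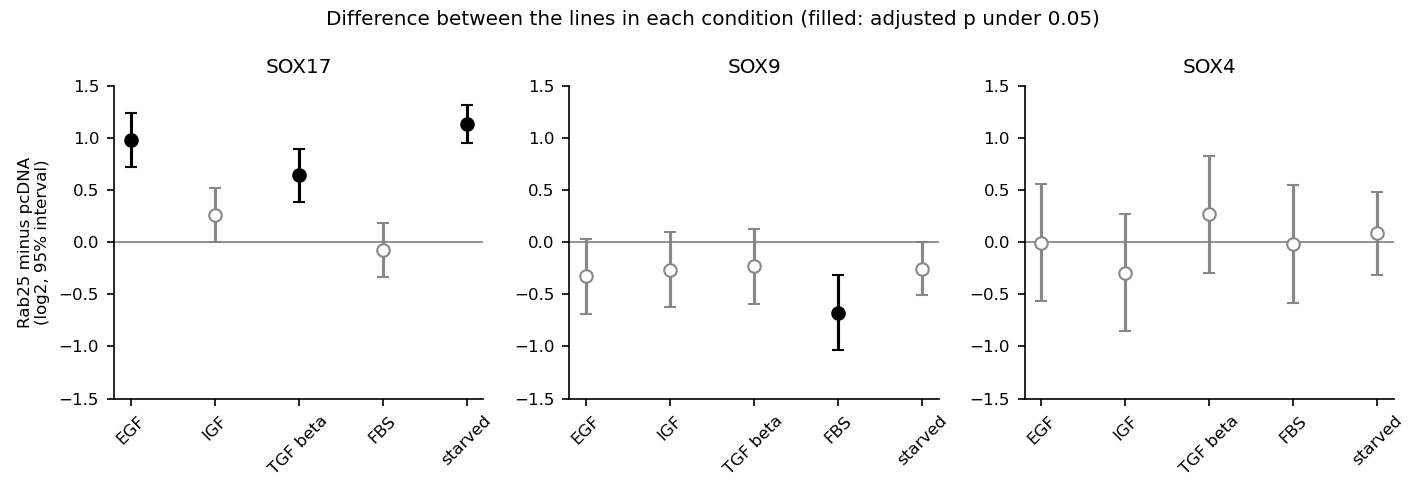
Rab25 minus pcDNA difference in log2 signal (vertical axes) with its 95% interval in each condition for SOX17, SOX9 and SOX4, filled where the adjusted p was under 0.05. The SOX17 difference is 1.14 in starved cells, 0.98 with EGF and 0.64 with TGF beta, and its interval holds 0 with FBS (-0.07). The SOX9 difference lies below 0 in each condition, but it is called with FBS alone and its interval holds 0 in the others. The SOX4 differences, none called, run from -0.29 with IGF to 0.27 with TGF beta.

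Within Rab25 cells SOX17 fell with IGF, TGF beta and FBS. IGF left signals of 7.70 and 7.33, against 8.58 to 8.80 on the 4 starved Rab25 arrays, which is 2.29-fold lower (log2 -1.19, SE 0.11, limma adjusted p = 4.09e-05, in a comparison that called 0.771% of genes). FBS left 7.43 and 7.33, which is 2.51-fold lower (log2 -1.33, SE 0.11, limma adjusted p = 1.63e-06, 7.72% of genes). TGF beta left 8.17 and 7.92, which is 1.58-fold lower (log2 -0.66, SE 0.11, limma adjusted p = 0.00701, 0.494% of genes). All of these treated arrays lay below the starved arrays, and those with FBS and 1 of the 2 with IGF lay within the range of the pcDNA line (7.15 to 7.62). Without the Rab25 TGF beta array of experiment 2 the fall with TGF beta lost its call (-0.61, adjusted p = 0.0576), as it did in experiment 1 alone (-0.62, adjusted p = 0.0587). EGF, with 8.61 and 8.17, gave a log2 difference of -0.32 (SE 0.11, limma adjusted p = 0.525, 0.00838% of genes).

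In pcDNA cells limma called SOX17 with none of the 4 treatments, although IGF had an unadjusted p of 0.00787, and called 0.0% of genes with EGF and with IGF, where 325 and 793 had an unadjusted p under 0.05. The log2 differences from starved pcDNA cells were -0.16 with EGF, -0.32 with IGF (95% interval -0.54 to -0.10, limma adjusted p = 0.641), -0.16 with TGF beta and -0.12 with FBS (95% interval -0.34 to 0.11, limma adjusted p = 0.55). Without the pcDNA FBS array of experiment 2 the last was -0.35 and passed the threshold (limma adjusted p = 0.0418). The FBS response of SOX17 differed between the lines by -1.21 (Rab25 minus pcDNA, SE 0.15, limma adjusted p = 6.26e-04), in a comparison that called 25 genes, 0.209% of those tested. It was -1.32 within experiment 2 and -1.10 within experiment 1, where each treated group held 1 array. The Rab25 FBS arrays it rests on are those with the raised blood, stromal, breast and adipocyte marker sums, whose part in the result was not tested, and RAB25 itself was at 8.18 and 8.66 there.

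The IGF response of SOX17 differed between the lines by -0.87 (SE 0.15) with an unadjusted p of 2.13e-05, but the limma adjusted p was 0.254 and the comparison called 0 of 11940 genes, with 253 under an unadjusted p of 0.05. Its size was -0.90 in experiment 2 and -0.85 in experiment 1. The call came with array quality weights (adjusted p = 0.0448) and when either pcDNA FBS array was left out (adjusted p = 0.0231). On the Rab25 IGF arrays the blood, breast and adipocyte sums lay within the range of the other arrays with the Rab25 FBS arrays set aside. The stromal sum reached 12.64 there, against at most 12.62 on those other arrays. The TGF beta responses differed by -0.50 (SE 0.15, limma adjusted p = 0.741) and the EGF responses by -0.15 (SE 0.15, limma adjusted p = 1.0). Over both lines together SOX17 fell with IGF by 0.76 on the log2 scale (SE 0.07, limma adjusted p = 2.01e-04), with FBS by 0.72 (SE 0.07, limma adjusted p = 1.70e-05) and with TGF beta by 0.41 (SE 0.07, limma adjusted p = 0.0082). It lay below starved cells in 4 of 4 pairs of line and experiment with IGF and with TGF beta, and in 3 of 4 with FBS. The call with TGF beta was lost without the experiment term (adjusted p = 0.0799), in experiment 1 alone (-0.33, adjusted p = 0.108) and without the pcDNA TGF beta array of experiment 2 (adjusted p = 0.095).

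Since SOX17 also marks endothelial cells, 6 endothelial markers were set beside it. CDH5, the cadherin of endothelial junctions, and the receptor gene TIE1 had mean log2 signals of 11.09 and 11.36, TEK one of 7.05, and PECAM1, VWF and KDR lay near background. The log2 of the summed linear signal of the 6 was 12.5 to 12.8 in starved Rab25 cells and 12.2 to 12.4 in starved pcDNA cells. On the Rab25 IGF arrays it was 12.0 and 12.2. Of the 6, 2 were called in starved cells (14.8% of all genes), CDH5 (log2 0.67, SE 0.20, limma adjusted p = 0.0317) and VWF (0.34, limma adjusted p = 0.0491), both higher in Rab25 cells. Over all conditions 1 was higher and 1 lower in Rab25 cells (24.7% of all genes), CDH5 at 0.56 (limma adjusted p = 0.00198) and TIE1 at -0.10 (limma adjusted p = 0.0347). With IGF 2 of 6 fell (2.71% of all genes), CDH5 by 0.77 (SE 0.17, limma adjusted p = 0.0255) and TIE1 by 0.19 (limma adjusted p = 0.0355). With EGF, TGF beta and FBS limma called 0 of 6 over both lines (0.0%, 1.6% and 17.2% of all genes). At an unadjusted p under 0.05 there were 3, 1 and 1, while in Rab25 cells alone PECAM1 rose with FBS. The part of these markers in the SOX17 result was not tested. PAX8, the lineage factor of the female reproductive tract and a marker of ovarian carcinoma, was 0.56 higher in Rab25 cells (SE 0.05, limma adjusted p = 3.54e-07) and fell with TGF beta by 0.29 (SE 0.07, limma adjusted p = 0.0436). Of the 12 ovarian carcinoma markers, 4 were called higher and 1 lower in Rab25 cells over all conditions (24.7% of all genes). With TGF beta 0 were called higher and 1, PAX8, lower (1.6% of all genes). RNA integrity, read from actin probe sets at both transcript ends, overlapped between the lines (a log2 gap of 0.63 to 1.07 on Rab25 and 0.67 to 1.17 on pcDNA arrays).

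Of the genes that SOX17 and SOX18 are known to control in endoderm and vessels, 7 of 7 were measured (VCAM1, CLDN5, PROX1, FOXA1, FOXA2, GATA4 and LAMA1) and only FOXA2 lay above the background mark. By limma 0 of 7 were called between the lines (24.7% of all genes), where 2 had an unadjusted p under 0.05. With FBS 0 were called (17.2% of all genes), where 1 had such a p. With EGF, IGF or TGF beta 0 were called (0.0%, 2.71% and 1.6% of all genes), where 0 of the 7 had such a p. Their median log2 difference between starved lines was -0.01, as was that of all genes. The 3 genes whose signal followed that of SOX17 most closely over the 24 arrays, after the mean of each experiment was taken off, were TNFRSF11B, a decoy receptor for RANKL (Pearson r = 0.87), ZNF395 (0.85) and BBS1 (0.84), out of 8306 genes above the mark. Such correlations are descriptions, since the arrays share lines, treatments and scaling.

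SOX18, the other SoxF factor, which acts in blood and lymph vessels, stayed near background. Its log2 signals in starved cells were 5.20, 5.20, 5.22 and 5.37 in Rab25 cells, against 5.05, 5.07, 4.91 and 5.02 in pcDNA cells, groups that did not overlap. The difference of 0.24 (SE 0.06, limma adjusted p = 0.0156) was called, but both groups lay under the mark, and its 1 probe set is of the x_at kind, whose probes can also match other transcripts. The call was lost in each experiment alone and when 1 of 2 experiment 2 arrays was left out, the pcDNA array at 4.91 (adjusted p = 0.0601) or the Rab25 array at 5.37 (adjusted p = 0.0651). With TGF beta SOX18 stood at 4.83 and 4.95 in Rab25 cells, below the starved Rab25 arrays (log2 -0.36, SE 0.08, limma adjusted p = 0.0443), a call lost when any of 17 of the 24 arrays was left out.

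SOX4, a SoxC factor of progenitor cells and many carcinomas, responded to treatment in both lines. With TGF beta its log2 signals were 11.84 and 12.29 in Rab25 cells and 11.51 and 12.08 in pcDNA cells. The starved arrays had 10.62, 10.62, 10.14 and 10.06 in Rab25 cells and 10.38, 10.46, 10.23 and 10.03 in pcDNA cells. In each line the TGF beta arrays were the highest, and they did not overlap with starved cells. SOX4 was 3.05-fold higher with TGF beta over both lines (log2 1.61, SE 0.16, limma adjusted p = 5.67e-05).

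The rise of SOX4 was called in each line, at 1.70 in Rab25 cells (SE 0.23, limma adjusted p = 0.00166) and 1.52 in pcDNA cells (SE 0.23, limma adjusted p = 0.0086, in a comparison that called 0.276% of genes). The responses of the lines differed by 0.18 (95% interval -0.51 to 0.87, limma adjusted p = 1.00, where limma called 0 genes and 622 had an unadjusted p under 0.05). Without the pcDNA TGF beta array of experiment 2 the pcDNA rise was 1.12 with an adjusted p of 0.463. SOX4 was not called between the lines over all conditions (log2 0.01, 95% interval -0.23 to 0.25, limma adjusted p = 0.972), and was higher in Rab25 cells in 4 of 10 matched pairs.

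SOX4 also rose with FBS. Its log2 signals with FBS were 11.44 and 10.60 in Rab25 cells and 11.35 and 10.73 in pcDNA cells, against 10.03 to 10.62 on the 8 starved arrays. In experiment 2 the Rab25 FBS array lay inside that range, below the starved Rab25 arrays of experiment 1. The rise over both lines was 1.63-fold (log2 0.71, SE 0.16, limma adjusted p = 0.00747). It was 0.66 in Rab25 cells (limma adjusted p = 0.0913) and 0.76 in pcDNA cells (limma adjusted p = 0.0583, where 6.75% of genes were called), neither past the threshold, and the raised marker sums were those of the Rab25 arrays. It passed in 6 alternatives in Rab25 cells and in 14 in pcDNA cells, among them the fit with treatment by experiment terms (limma adjusted p = 1.64e-04 in Rab25 and 6.20e-05 in pcDNA cells). The call over both lines was lost with array quality weights (adjusted p = 0.12) and without the experiment 1 FBS array of Rab25 cells (0.52, adjusted p = 0.0645) or of pcDNA cells (0.58, adjusted p = 0.0755).

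IGF left SOX4 at 9.47 and 9.74 in Rab25 cells and at 9.81 and 9.99 in pcDNA cells, each below all 4 starved arrays of its line. The log2 difference was -0.57 (SE 0.16), which missed the threshold (limma adjusted p = 0.0726). It passed in 8 alternatives, among them a fit without either of the Rab25 FBS arrays (adjusted p = 0.0384). With EGF the difference was -0.23 (SE 0.16, limma adjusted p = 0.845).

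The SOX4 responses to TGF beta and IGF differed between the experiments, which differ in exposure if the protocol holds. Against the 2 starved arrays matched on line and experiment, the TGF beta rise was 2.19 in Rab25 cells and 1.95 in pcDNA cells in experiment 2, against 1.22 in Rab25 cells and 1.09 in pcDNA cells in experiment 1. Both lines thus gave the larger rise in experiment 2, by 0.92 (SE 0.11, limma adjusted p = 0.00259, in a comparison that called 0.402% of genes). With IGF the SOX4 differences were -0.37 in Rab25 cells and -0.14 in pcDNA cells in experiment 2, against -1.16 in Rab25 cells and -0.62 in pcDNA cells in experiment 1. The difference of 0.63 (SE 0.11, limma adjusted p = 0.0158, 1.42% of genes) lost its call without any 1 of the 4 IGF arrays (adjusted p 0.0835 to 0.224) and with the median of the SOX4 probe sets (0.52, adjusted p = 0.12). Over both lines SOX4 with IGF gave -0.89 within experiment 1 and -0.26 within experiment 2. With FBS the difference between the experiments was -0.33 (SE 0.11, limma adjusted p = 0.0538, 22.5% of genes), not past the threshold. It passed in 6 alternatives, among them the median of the SOX4 probe sets (-0.83, adjusted p = 0.00119). With EGF limma called 0 of 8 members and 0.0838% of genes, and 1 member had an unadjusted p under 0.05.

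Over all 4 treatments at once, 2 of 8 SOX genes, SOX4 and SOX9, differed in response between the experiments by limma's moderated F test, which called 16.9% of all genes. The adjusted p of this test was 1.88e-04 for SOX4 and 0.00484 for SOX9, 0.0631 for SOX13 and 0.237 for SOX17. With the median of its probe sets that of SOX9 was 0.0615. SOX17 passed with quantile normalization (adjusted p = 0.0244) and with each array centred on its median (adjusted p = 0.0355). SOX13 passed in 6 alternatives, each with 1 array left out. In starved cells SOX4 was lower in experiment 2 (log2 -0.41, SE 0.07, limma adjusted p = 3.83e-04), 1 of 3 SOX genes called there, in a comparison that called 31.3% of genes. Exposure and whatever else set the experiments apart cannot be told apart.

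**Figure D4:**
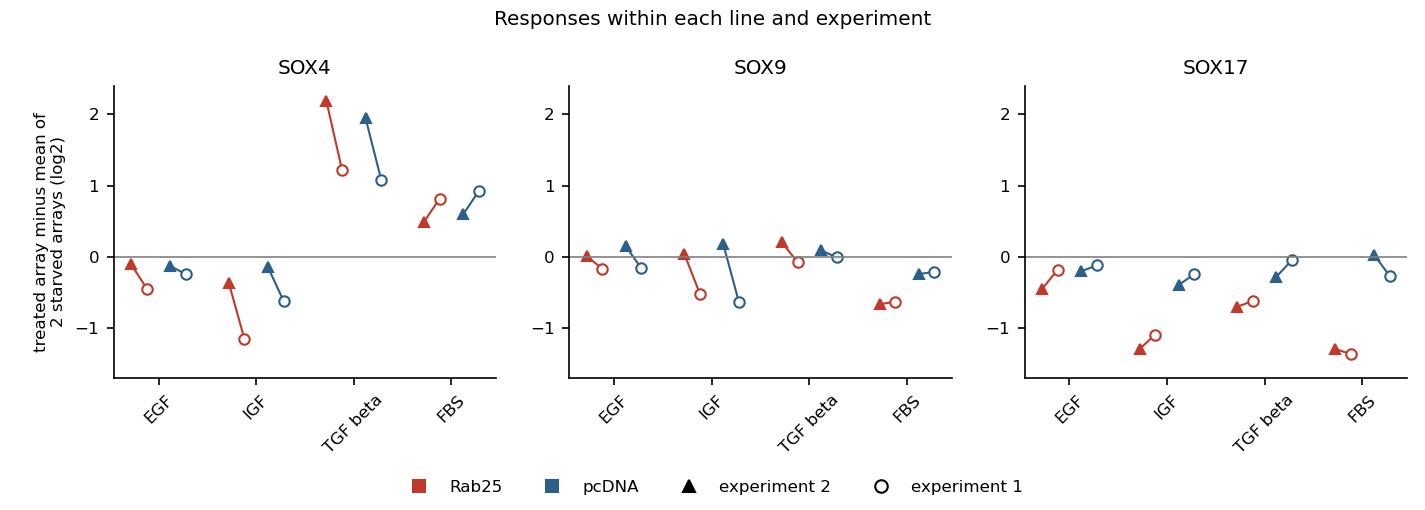
Responses of SOX4, SOX9 and SOX17 within each line and experiment: the treated array minus the mean of the 2 matched starved arrays (vertical axes, log2), with triangles for experiment 2 and open circles for experiment 1, joined by a line. The TGF beta rise of SOX4 is higher in experiment 2 in both lines, and SOX9 with IGF lies below starved cells in experiment 1 alone.

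SOX4 has 5 probe sets, so its response was read 5 times. With TGF beta the probe set used, 201417_at (mean log2 signal 10.57), gave 1.61. The others gave 2.05 for 201416_at (mean 7.66, SE 0.24), 1.29 for 201418_s_at (mean 8.53, SE 0.12), 1.20 for 213668_s_at (mean 6.44, SE 0.19) and 0.07 for 213665_at (mean 5.34, SE 0.07). The 4 above background all rose over both lines, with limma adjusted p values over 19415 probe sets from 2.76e-05 to 0.00402, and the fifth lay under the background mark. In each line alone 213668_s_at was not called, at 1.03 in Rab25 cells (limma adjusted p = 0.152) and 1.37 in pcDNA cells (limma adjusted p = 0.0528). Over the 24 arrays the first 3 of these others followed the probe set used with Pearson r of 0.97, 0.94 and 0.91, and 213665_at with 0.25. With FBS 213668_s_at gave 0.52 and missed the threshold (limma adjusted p = 0.0846), and 213665_at gave 0.00.

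**Figure D5:**
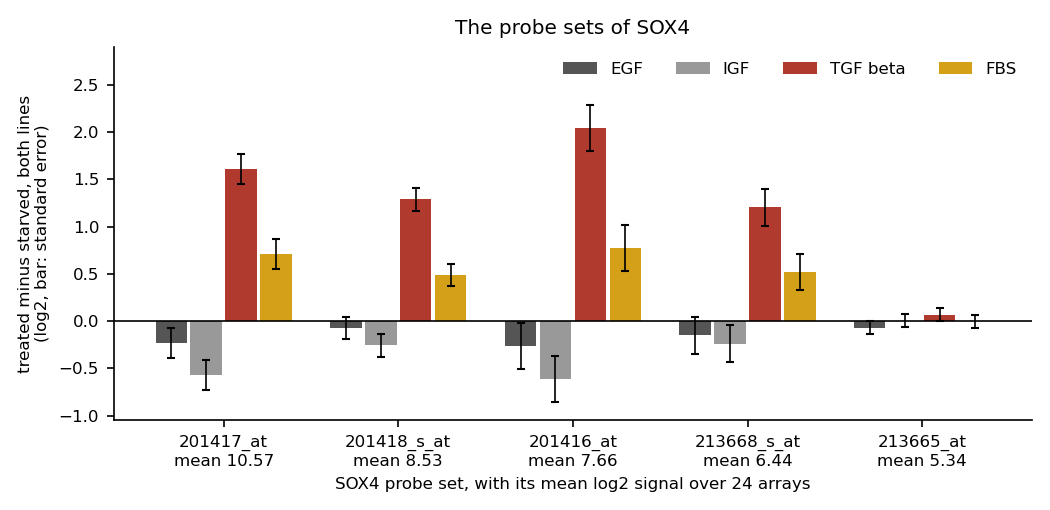
Treated minus starved difference over both lines (vertical axis, log2, bars with standard errors) for the 5 probe sets of SOX4 and each treatment, with the mean log2 signal of each probe set on the horizontal axis. The TGF beta bar is between 1.20 and 2.05 for the 4 probe sets above background and 0.07 for 213665_at, which lies near background.

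The promoters of SOX4, which rose with TGF beta, and of SOX12, a SoxC gene that was not called there, are shown to set their letters side by side. The set of promoter sequences used here (RefSeq, GRCh38.p14) held 3 of the 8 members, SOX4, SOX12 and SOX13. The stretches are the 250 bases before the start of each gene, on the plus strand at chr6:21593501-21593750 for SOX4 and chr20:325302-325551 for SOX12, read 5′ to 3′. Capitals mark CCAAT, or ATTGG where it is read on the other strand.
SOX4: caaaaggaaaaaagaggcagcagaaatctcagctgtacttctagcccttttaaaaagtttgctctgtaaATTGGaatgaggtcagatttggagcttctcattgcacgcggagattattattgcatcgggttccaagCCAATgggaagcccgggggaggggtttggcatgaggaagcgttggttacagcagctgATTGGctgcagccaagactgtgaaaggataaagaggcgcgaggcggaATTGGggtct
SOX12: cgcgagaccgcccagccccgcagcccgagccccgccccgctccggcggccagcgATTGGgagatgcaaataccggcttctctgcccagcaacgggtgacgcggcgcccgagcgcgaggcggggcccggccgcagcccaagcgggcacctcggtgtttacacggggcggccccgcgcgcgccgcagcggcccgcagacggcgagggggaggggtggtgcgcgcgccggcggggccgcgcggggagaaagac
The SOX4 stretch had 48.8% G and C and 4 matches to CCAAT on either strand, and the SOX12 stretch 79.2% and 1 match. Of 34943 promoters of this length, 32% held at least 1, and the motif was chosen after the sequences were read. CAGAC or its reverse complement GTCTG, the letters of the SMAD-binding element, was absent from the SOX4 stretch and occurred once in that of SOX12, 58 to 54 bases before the start (38% of promoters). ACAAT or ATTGT, a core of SOX binding sites, occurred in neither (24.7% of promoters). The motifs share no overlap with each other in these stretches, and a match or its lack describes the letters only.

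Genes known to respond to TGF beta were measured beside SOX4. Of 11 such genes, 8 rose and 0 fell with TGF beta (1.6% of all genes were called; median 0.65 over the list and -0.02 over all genes), among them PMEPA1, which restrains SMAD signalling (2.07), the scaffold NEDD9 (2.38), LTBP2 of the matrix (0.64) and the matrix protein TGFBI (1.29). The genes closest to SOX4 over the 24 arrays were the basement membrane collagen COL4A1 (r = 0.91), the receptor LRP4 (0.91) and the fibroblast protease FAP (0.90). COL4A1 is itself on the list of TGF beta genes, and rose by 1.56. Of 9 measured genes known as targets of SOX4 and SOX11, limma called 0 with TGF beta, where it called 1.6% of all genes. Of the 9, 0 had an unadjusted p under 0.05 (median -0.06, range -0.22 for TNC to 0.09 for TUBB3). With FBS, where SOX4 rose too, 3 of 9 were called (17.2% of all genes): the neuronal tubulin TUBB3 rose by 0.39 and the histone methyltransferase EZH2 by 0.40, and SEMA3C fell by 0.22. Between the lines, where SOX4 was not called, 3 of 9 were (24.7% of all genes): SEMA3C, a secreted guidance factor, and TNC, a matrix protein, were higher in Rab25 cells by 0.53 and 0.62 and DICER1 lower (-0.17).

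The other SoxC genes were not called with any treatment over both lines and experiments. SOX11, a factor of neural progenitors, had log2 signals of 5.15 to 5.55 in Rab25 cells and 5.13 to 5.55 in pcDNA cells, all under the mark, and its other probe sets had r of -0.12 and 0.13 with the one used. SOX12, a broadly expressed SoxC factor, had 6.79 to 7.45 in Rab25 cells and 6.54 to 7.42 in pcDNA cells, which overlapped. Its difference between the lines was 0.16 (SE 0.07, limma adjusted p = 0.114), higher in Rab25 cells in 7 of 10 matched pairs. The threshold was passed with quantile normalization (0.20, adjusted p = 0.0246) and with each array centred on its median (0.23, adjusted p = 0.0175). The difference was 0.31 in experiment 2 alone, where the matched differences ran from 0.004 with FBS to 0.635 with EGF. In experiment 1 the matched differences were 0.289 in starved cells, 0.019 with EGF, -0.021 with IGF, -0.133 with TGF beta and -0.115 with FBS. The difference over all conditions was 0.21 without the Rab25 IGF array of experiment 1 and 0.21 without the 2 arrays of lowest median. With TGF beta SOX12 gave -0.13 (SE 0.10, 95% interval -0.35 to 0.08). Across arrays SOX12 and SOX17 had an r of 0.53, the highest of the 28 pairs of members.

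SOX9, the SoxE factor of cartilage, gonad and epithelial progenitors, was lower in Rab25 cells. Its log2 signals had a lowest, median and highest value of 10.57, 11.20 and 12.04 on the 12 Rab25 arrays, against 10.90, 11.67 and 12.19 on the 12 pcDNA arrays. The lines overlapped when experiments were pooled, but within each of the 10 pairs of condition and experiment the Rab25 signal was lower, by 0.06 to 0.75. The difference was -0.35 (1.27-fold lower, SE 0.07, limma adjusted p = 0.00172), and -0.29 within experiment 2 and -0.41 within experiment 1. With FBS left out of both lines it was -0.27 (SE 0.08, limma adjusted p = 0.0223). Without the experiment term it kept its size but lost its call (adjusted p = 0.307). The second probe set, 202935_s_at, followed the first at r = 0.95 and gave -0.59 (SE 0.11). Taken by condition, the SOX9 difference was called with FBS alone. It was -0.255 in starved cells (limma adjusted p = 0.174), -0.33 with EGF (limma adjusted p = 0.517), -0.26 with IGF (limma adjusted p = 0.605) and -0.23 with TGF beta (limma adjusted p = 0.621). The difference in starved cells passed in 4 alternatives and that with EGF in 1.

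SOX9 fell with FBS. With FBS it had 10.57 and 11.17 in Rab25 cells, against 11.18, 11.22, 11.79 and 11.88 on the starved Rab25 arrays, and it was below the starved arrays of its own experiment in both. The pcDNA signals were 11.32 and 11.77 with FBS, against 11.57, 11.50, 11.98 and 12.04 when starved. Over both lines the difference was -0.44 (SE 0.11, limma adjusted p = 0.00929). It was -0.65 in Rab25 cells (SE 0.15, limma adjusted p = 0.0147), whose FBS arrays had the raised marker sums, and -0.23 in pcDNA cells (95% interval -0.54 to 0.09, limma adjusted p = 0.388). The call in Rab25 cells was lost without the Rab25 FBS array of experiment 2 (-0.57) and without the 2 arrays of lowest median (-0.58). It was also lost without the experiment term (adjusted p = 0.507), with array quality weights (adjusted p = 0.398) and with the second probe set (-0.67, adjusted p = 0.0723). The responses of the lines differed by -0.42, which was not past the threshold (SE 0.21, limma adjusted p = 0.481). The call over both lines was lost without the experiment term (adjusted p = 0.431) and with array quality weights (adjusted p = 0.171). In FBS-treated cells SOX9 was lower in Rab25 cells by 0.68 (SE 0.17, limma adjusted p = 0.0339, where 4.15% of genes were called). This call was lost without the FBS array of Rab25 cells from experiment 2 (-0.6), without that of pcDNA cells from experiment 1 (-0.516) and without the 2 arrays of lowest median (-0.61). It was also lost without the experiment term (adjusted p = 0.709), with array quality weights and with each array centred on its median (adjusted p = 0.0562). The arrays of the groups compared only gave an adjusted p of 0.102, and the second probe set gave -0.87 (adjusted p = 0.0651).

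SOX9 also differed between the experiments. In starved cells it had 11.79 and 11.88 in Rab25 cells and 11.98 and 12.04 in pcDNA cells in experiment 2, against 11.18 and 11.22 in Rab25 cells and 11.57 and 11.50 in pcDNA cells in experiment 1. The experiments did not overlap, with a difference of 0.56 (SE 0.06, limma adjusted p = 2.57e-05). With IGF, SOX9 gave 0.04 in Rab25 cells and 0.18 in pcDNA cells in experiment 2, against -0.52 in Rab25 cells and -0.64 in pcDNA cells in experiment 1, a difference of 0.69 (SE 0.11, limma adjusted p = 0.00847), whose call was lost without any 1 of the 4 IGF arrays (adjusted p 0.0872 to 0.0996). Within experiment 1 the SOX9 response to IGF over both lines was -0.58, and within experiment 2 it was 0.11. With TGF beta SOX9 gave 0.05 over both lines (SE 0.11, 95% interval -0.17 to 0.28).

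Of 10 genes known as SOX9 targets in cartilage and gonad, 2 lay above background. Limma called 0 of 10 between the lines over all conditions (24.7% of all genes), 0 of them at an unadjusted p under 0.05, and with FBS (17.2% of all genes) the collagen COL9A1, near background, was lower by 0.16. The genes nearest to SOX9 over the arrays were MAN2B2, a lysosomal mannosidase (r = 0.87), BCR, a GTPase regulator (0.84) and MAP3K7CL (0.83).

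SOX13, a SoxD factor without a known activation domain of its own, and SOX15, a SoxG factor, were not called between the lines or with any treatment over all 24 arrays. SOX13 had 6.22 to 7.12 in Rab25 cells and 6.60 to 7.09 in pcDNA cells, and its difference between the lines was -0.12 (SE 0.08, limma adjusted p = 0.32), but -0.20 and called without the Rab25 FBS array of experiment 1 (limma adjusted p = 0.0443). In starved cells it was lower in experiment 2, with 6.59 and 6.61 in Rab25 cells and 6.72 and 6.78 in pcDNA cells, against 7.08 and 7.05 in Rab25 cells and 6.94 and 6.98 in pcDNA cells in experiment 1. The experiments did not overlap (log2 -0.34, SE 0.10, limma adjusted p = 0.0159), though without the first starved Rab25 array of either experiment the adjusted p was 0.0505 in each case. Its second probe set followed it at r = 0.69. SOX15 had 5.63 to 6.23 in Rab25 cells and 5.72 to 6.35 in pcDNA cells, with a difference of -0.13 (SE 0.07, limma adjusted p = 0.183), and its second probe set followed it at r = 0.43. With IGF in experiment 1 alone, SOX12 and SOX13 each stood 0.45 below starved cells over both lines. Over both experiments SOX12 gave -0.28 (limma adjusted p = 0.168) and SOX13 -0.22 (limma adjusted p = 0.392). The SOX12 difference was called from the arrays of the groups compared only (limma adjusted p = 0.0389). SOX12 lay below starved cells in 4 of 4 pairs of line and experiment, and SOX13 in 2 of 4.

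A further 8 SOX genes were measured (SOX1, SOX2, SOX3, SOX5, SOX10, SOX14, SOX21 and SOX30). Their means ran from 5.01 to 6.07, and only SOX10 lay above the mark. Limma called 0 of 8 between the lines (24.7% of all genes), with 3 at an unadjusted p under 0.05. With IGF (2.71% of all genes) it called 0, with 2 at such a p. With EGF (0.0%) or TGF beta (1.6%) it called 0, with 0 at such a p. SOX5, near background, fell by 0.17 with FBS (17.2% of all genes). Of 8 measured partners and regulators of SOX proteins, 2 were higher and 4 lower in Rab25 cells over all conditions (24.7% of all genes), and 0 were higher and 2 lower in starved cells (14.8%). Over all conditions the log2 difference was 0.49 for LEF1, a partner of beta-catenin, 0.51 for PAX6, -0.63 for the acetyltransferase CREBBP and -0.20 for beta-catenin, CTNNB1 (medians -0.09 over the 8 and -0.01 over all genes). With FBS 2 rose and 3 fell (17.2% of all genes), with EP300 at -0.52 and CREBBP at -0.66, in arrays that include those with the raised marker sums. With TGF beta, where SOX4 rose, limma called 0 of the 8 (1.6% of all genes), with 1 at an unadjusted p under 0.05.

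Of the genes nearest to the other members above the mark over the 24 arrays, those for SOX12 were SIGIRR, a brake on interleukin receptors (r = 0.85), RALGDS, a Ras effector (0.84), and DHRS1 (0.84). For SOX13 they were the phosphatase DUSP22 (0.81), the cytoskeletal SEPTIN9 (0.80) and NISCH (0.80). For SOX15 they were the histone gene H2BC9 (0.64), SH3BP2 (0.64) and MTERF4 (0.63). Between members, r was 0.13 for SOX4 and SOX9, -0.06 for SOX4 and SOX17, and lowest, at -0.40, for SOX9 and SOX18.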

How the data were processed

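Total RNA of 24 samples was hybridised to Affymetrix high-throughput human arrays. The authors deposited log2 values per probe set, and per the submitters' processing notes MAS5 and RMA were used, with no version or role given; the scaling steps are not given in the sources used here. Of 22930 probe sets, 19415 had 1 gene symbol, 125 several and 2866 none, and 524 were controls. The probe set of highest mean stood for each of 11940 genes. With limma 3.58.1 (R 4.3.3), lmFit and eBayes were run on 10 groups with the experiment as a term (13 residual and 3.51 prior degrees of freedom), and Benjamini-Hochberg adjustment ran over all genes of a contrast. The experiment is a label that each group shares, and its deviations correlated between groups at a median r of 0.66 (0.09 to 0.86 over 45 pairs). A further fit held treatment by experiment terms. The scripts were tested on simulated data. The number of arrays limits the precision, and the labels do not say whether the samples of a group came from separate cultures, so p-values measure the spread between these samples. Over genes, the SD of the difference between repeat starved arrays within an experiment was 0.144 to 0.173. Between arrays of the same group, starved or treated, across experiments it was 0.308 to 0.432.

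The members, gene lists and alternatives were chosen with earlier results of these data known. The text names all 8 members, their other probe sets, RAB25, up to 4 genes of lowest p of a list, and the 3 genes closest to each member. Genes from a list with another rank are named where a count needs it, and CDH5, PAX8 and the CCAAT motif were chosen after their values or letters were seen.
Alternatives were another scaling, filter, weighting or choice of probe set, each experiment alone, no experiment term, and each array left out; leaving FBS out of both lines was added after seeing the data.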

Additional observations from a re-analysis of the deposited data

Results flagged for a closer look

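In 5 instances a SOX value stood out. The FBS response of SOX17 differed between the lines by -1.21 on the log2 scale (limma adjusted p = 6.26e-04), with -1.33 in Rab25 cells and -0.12 in pcDNA cells. The TGF beta response of SOX4 differed between the experiments by 0.92 (experiment 2 minus 1, limma adjusted p = 0.00259), and its IGF response by 0.63 (limma adjusted p = 0.0158). The IGF response of SOX9 differed between the experiments by 0.69 (limma adjusted p = 0.00847). One starved Rab25 array had SOX18 at 5.37, apart from the other 3 of its group at 5.20 to 5.22. It was the only such value in 16 sets of 4 values examined, the 8 genes in each of the 2 starved groups. Chance marks about 1 in 20 sets of 4 values drawn alike. Each set here held 2 arrays from each of 2 experiments, so that rate need not hold.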

How the results depend on the processing

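Counts of the 8 SOX genes called by limma moved as follows. Without the replicate block, that is, without the experiment as a term, 1 was called between the lines over all conditions (2 with it) and 1 with TGF beta (2 with it). Centring each array gave 4 between the lines. Between starved lines, 2 in the reported setting, 4 were called from the arrays of those groups only. With the lowest 40% of genes left out 1 was called, but only 4 of the 8 members were tested there, without SOX18. In experiment 2 alone, with 1 array in each treated group, SOX18 gave 0.331. With IGF, 1 in the reported setting, 2 were called with array weights, without both Rab25 FBS arrays or without the 2 arrays of lowest median, 3 with treatment by experiment terms or from the groups compared only, and 5 in experiment 1 alone. FBS called 1 with array weights (3 in the reported setting). In experiment 1 alone, with 1 array in each treated group, SOX17 gave -0.332 with TGF beta over both lines. The IGF response difference between lines called 1 with array weights (0 in the reported setting), and the treatment by experiment test 1 with the median of probe sets (2 in the reported setting). With the highest background value as the mark, 4 members lay near background (2 otherwise).

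Leaving out each array in turn gave 2 to 3 called between the lines, 1 to 2 between starved lines, 0 with EGF, 1 to 2 with IGF, 1 to 2 with TGF beta, 2 to 3 with FBS, 0 to 1 for the IGF response difference, 1 for that of FBS, 2 to 3 for treatment by experiment and 2 to 4 between starved experiments. Reversed values came from the SOX4 probe set 213665_at, near background, with -0.001 for FBS over both lines (limma adjusted p = 0.993) and -0.069 for TGF beta in Rab25 cells (limma adjusted p = 0.963). Over single genes, 656 of 696 left-out values and 295 of 327 under other settings kept direction and call, the rest losing the call. With another probe set of the same gene 11 of 20 did, 7 lost the call and 2 reversed. The cause of these changes was not tested.

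Over all genes, FBS called 2057, against 4109 in experiment 1 alone, 1248 in experiment 2 alone, 367 with array weights, 396 without the replicate block, 3358 with treatment by experiment terms, 3258 without the 2 arrays of lowest median, and 757 to 3181 with 1 array left out. IGF called 323, against 1015 in experiment 1 alone, 796 with array weights, 10 without the block, 885 from the groups compared, 1298 with treatment by experiment terms, 515 without the Rab25 FBS arrays, 549 without the 2 arrays of lowest median, and 52 to 515 with 1 array left out. TGF beta called 191, against 110 in experiment 1 alone, 406 in experiment 2 alone, 55 without the block, 380 from the groups compared, 498 with treatment by experiment terms, and 55 to 238 with 1 array left out. The lines differed in 2944 genes, against 1665 without the block, and in 1767 when starved, against 3273 with array weights, 730 without the block, 3056 from the groups compared and 2884 with treatment by experiment terms. EGF called 0, against 2 with centring, 54 in experiment 2 alone, 40 with array weights, 59 from the groups compared, 106 with treatment by experiment terms and up to 4 with 1 array left out. The FBS response difference called 25, against 3 to 198 over the other settings and 16 to 202 with 1 array left out, and the treatment by experiment test 2013, against 1112 without the Rab25 FBS arrays and 1037 without the 2 arrays of lowest median.

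Scaling moved the share of called genes that were higher. Of those between the lines it was 37.1%, against 50.2% with quantile normalization and 66.1% with centring, of those between starved lines 37.6%, against 51.3% and 58.9%, and of those with FBS 37.3%, against 51.3% and 65.2%. With TGF beta it was 52.9%, against 64.1% and 76%, for the FBS response difference 68%, against 81.6% and 85.4%. Centring alone moved it with IGF (60.6% against 43.3%) and between starved experiments (58.9% against 47.1%). Neither scaling reversed a called SOX gene.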
